A study of Homo sapiens with 12 samples.

Results

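The genes described here are those of glycolysis and of the transcriptional response to low oxygen, read on Illumina bead arrays in bladder (urothelial) cancer cells. A list of 43 genes was used: 17 glycolytic enzymes, 3 glucose and lactate transporters, 3 regulators of glycolytic flux, 3 subunits of hypoxia-inducible factor (HIF) and 17 other HIF target genes. Probes annotated to a listed gene were taken where 3 or more of the 12 arrays detected them (detection p below 0.05), which gave 66 probes for 41 genes, out of 25176 probes and 13293 genes measured in the series. CA9 and SLC16A3 had no named probe and are not analysed here. Of the 72 named probes 6 were left out, 5 of them detected on no array and 1, for PFKL, on 1 array. The probes just inside the limit, of ALDOA and HK1, were detected on 4 and 6 arrays, and both genes also had brighter probes.

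The study modulated FABP4, a fatty acid carrier, in 2 established human urothelial cancer lines grown in Eagle's medium with 10% serum. UM-UC14 cells carried an shRNA against FABP4 or a non-targeting shRNA, and UM-UC9 cells received 1 µM rosiglitazone, an agonist that activates the receptor PPARG, over 24 hours or were untreated controls. Each of the 4 groups held 3 arrays. The labels name 1 FABP4 shRNA and no clone, and no oxygen level was varied or stated.

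HIF is a pair of proteins, an alpha subunit (HIF1A or EPAS1) and ARNT. In oxygenated cells the EGLN prolyl hydroxylases mark the alpha subunit for destruction by the VHL ubiquitin ligase, so HIF is set mainly by protein stability and less by the level of its transcripts. Stabilized HIF binds a short DNA core, ACGTG or GCGTG, and switches on glucose transporters, many glycolytic enzymes, angiogenic factors and its own inhibitors. Glycolysis turns glucose into pyruvate, and lactate dehydrogenase turns pyruvate into lactate.

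Promoter sequences, 250 bases before to 50 after a start, were available from RefSeq (GRCh38.p14) for 39 of the 43 listed genes. They are shown for the 2 members with the largest fall under FABP4 shRNA that the table holds, ENO2 (chr12:6914330-6914629) and MXI1 (chr10:110209981-110210280), and, chosen after their values were seen, for ANKRD37 (chr4:185396591-185396890), which changed with both treatments, and LDHA (chr11:18394313-18394612), which was called in neither. All 4 lie on the plus strand. MXI1 has 3 starts in the table and LDHA 2, and the start with the most matches is shown. Capitals mark ACGTG on either strand (read as CACGT on the other), with overlapping matches joined.
ENO2: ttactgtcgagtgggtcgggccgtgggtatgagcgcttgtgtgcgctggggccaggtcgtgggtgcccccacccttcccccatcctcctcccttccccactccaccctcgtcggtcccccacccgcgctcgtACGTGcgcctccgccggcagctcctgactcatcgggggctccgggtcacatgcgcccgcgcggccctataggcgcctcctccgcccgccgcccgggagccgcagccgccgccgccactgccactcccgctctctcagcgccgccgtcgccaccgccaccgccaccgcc
MXI1: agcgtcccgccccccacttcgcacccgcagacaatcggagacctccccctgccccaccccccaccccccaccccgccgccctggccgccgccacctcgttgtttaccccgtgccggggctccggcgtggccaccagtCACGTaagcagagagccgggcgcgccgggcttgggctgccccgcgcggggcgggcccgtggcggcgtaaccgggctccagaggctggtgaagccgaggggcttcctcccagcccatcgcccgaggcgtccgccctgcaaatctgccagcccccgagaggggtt
ANKRD37: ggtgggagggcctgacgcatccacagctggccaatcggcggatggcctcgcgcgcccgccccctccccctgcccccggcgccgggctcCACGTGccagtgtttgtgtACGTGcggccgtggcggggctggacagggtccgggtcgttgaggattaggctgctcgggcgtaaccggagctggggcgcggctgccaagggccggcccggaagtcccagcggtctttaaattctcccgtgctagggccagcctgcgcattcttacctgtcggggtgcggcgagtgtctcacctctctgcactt
LDHA: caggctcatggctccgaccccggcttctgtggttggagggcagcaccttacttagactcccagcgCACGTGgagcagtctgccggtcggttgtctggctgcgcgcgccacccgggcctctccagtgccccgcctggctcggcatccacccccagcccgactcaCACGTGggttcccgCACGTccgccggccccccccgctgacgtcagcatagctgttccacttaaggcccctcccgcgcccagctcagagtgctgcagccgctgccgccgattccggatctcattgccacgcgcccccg
Each of these windows holds at least 1 match, ANKRD37 2 and LDHA 3, all before the start. Over all the promoters of the table, 35116 in number, a share of 21.4% held ACGTG on either strand, against 28 of the 70 promoters of listed genes (40%), 15 of 37 for the glycolytic enzymes and 10 of 18 for the other HIF targets. A match is a string of letters and no measurement of binding.

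Arrays of 1 group correlated at r of 0.984 to 0.997 over the measured genes, and 20892 to 22407 of 47323 probes were detected on an array. Of the 41 genes, 37 were detected on all 12 arrays. FABP4 itself was at 10.35, 10.12 and 10.50 with its shRNA, against 13.93, 14.13 and 14.06 with non-targeting shRNA, on the normalized log2 intensity scale used throughout. With rosiglitazone it was at 14.60, 14.71 and 14.65, against 11.06, 11.01 and 10.82 in controls. PPARG changed by -0.21 with FABP4 shRNA (adjusted p = 0.24) and by -0.46 with rosiglitazone (adjusted p = 0.0093). Of 13 epithelial and urothelial markers 12 were detected on all arrays of every group, as were LUM, PECAM1, LEP and LIPE among the markers of other cells. Of those markers 4 of 7 for fibroblasts, 2 of 5 for blood, 3 of 5 for endothelium and 3 of 5 for adipocytes had a probe past the detection limit, while COL3A1, PDGFRA, PTPRC, CD3E, VWF, KDR, ADIPOQ and PLIN1 had none.

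With FABP4 shRNA in UM-UC14, 23 of the 41 genes fell and none rose. They were 13 of the 16 HIF targets that are not enzymes of glycolysis, 6 of the 17 glycolytic enzymes, both glucose transporters, PFKFB3 and ARNT. Across all 13293 genes 11.2% fell and 12.9% rose in this comparison (limma, adjusted p below 0.05 over all probes). No member passed even an unadjusted p of 0.05 in the upward direction, by limma. The median log2 difference was -1.01 over the other HIF targets and -0.17 over the glycolytic enzymes, beside 0.02 over all genes. These are RNA levels of whole cultures, so a lower level in each cell and fewer expressing cells cannot be told apart. The labels do not say whether the 3 arrays of a group were separate cultures. The p-values thus cover only the spread between these samples, pooled over the 4 groups, and that spread could be technical.

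**Figure D1:**
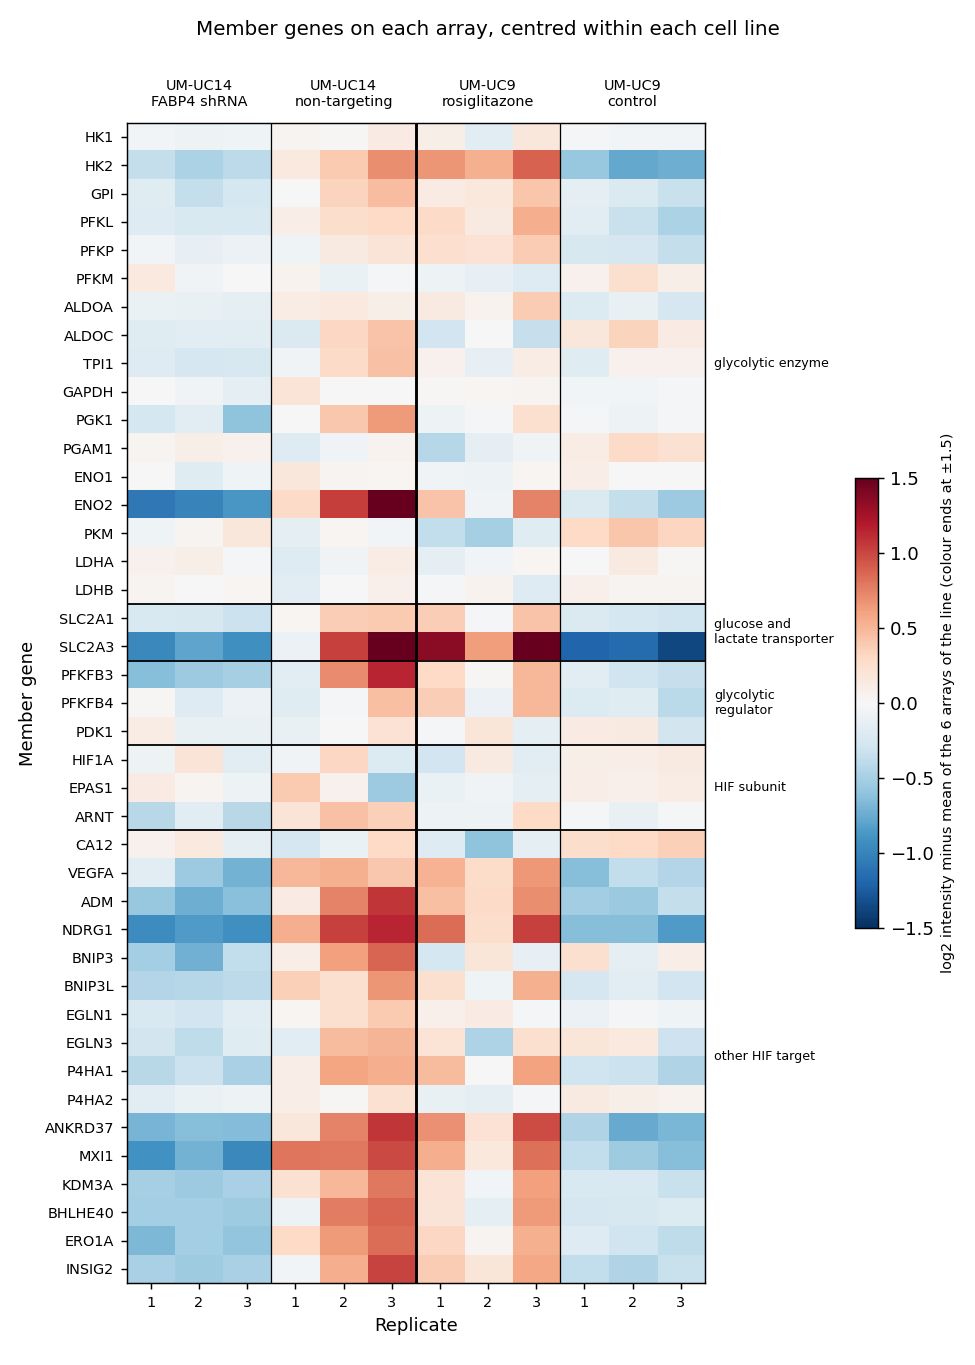
Normalized log2 intensity of the 41 genes (rows, by role) on each of the 12 arrays (columns), after subtraction of the gene's mean over the 6 arrays of its cell line; red is above and blue below that mean, and the colour ends at ±1.5. The FABP4 shRNA columns are blue for most HIF targets and for ENO2, SLC2A3 and PFKFB3, and non-targeting replicate 1 is paler than replicates 2 and 3.

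Among the HIF targets, MXI1, a repressor that competes with MYC for its partner MAX, was at 5.03, 5.24 and 4.98 with FABP4 shRNA, against 6.75, 6.73 and 6.93 with non-targeting shRNA. The groups lay far apart and the 3 non-targeting arrays were close together. The change was -1.72 (SE 0.15, adjusted p = 1.06e-05), to 0.304 times the non-targeting level. A second MXI1 probe fell by 2.06, while the third and dimmest changed by -0.22 and was not called (adjusted p = 0.206).

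NDRG1, a stress-induced protein and common marker of hypoxia, was at 11.79, 11.89 and 11.81 with FABP4 shRNA, against 13.28, 13.76 and 13.88 with non-targeting shRNA. Every FABP4 shRNA array was lower, and non-targeting replicate 1 was the lowest of its group. The change was -1.81 (SE 0.18, adjusted p = 3.14e-05). ADM, which encodes the vasodilator peptide adrenomedullin, was at 12.94, 12.77 and 12.88, against 13.62, 14.25 and 14.58, a change of -1.29 (SE 0.19, adjusted p = 0.000449). Here too non-targeting replicate 1 lay nearest the shRNA arrays without overlap.

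VEGFA, the main angiogenic growth factor, was at 8.90, 8.52 and 8.37 with FABP4 shRNA, against 9.57, 9.60 and 9.48 with non-targeting shRNA. Its non-targeting arrays agreed closely and its shRNA arrays were the more spread. The change was -0.95 (SE 0.14, adjusted p = 0.000493). ERO1A, the endoplasmic reticulum oxidase that helps form disulfide bonds, was at 10.21, 10.38 and 10.29, against 11.17, 11.51 and 11.72, a change of -1.18 (SE 0.15, adjusted p = 0.000152). ANKRD37, a small ankyrin repeat protein, was at 8.68, 8.73 and 8.71, against 9.54, 10.11 and 10.44, a change of -1.32 (SE 0.21, adjusted p = 0.000802).

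The remaining called HIF targets fell by 0.45 to 1.06 on the log2 scale. They were the mitophagy receptors BNIP3 and BNIP3L, the oxygen-sensing hydroxylase EGLN1, the collagen hydroxylase subunit P4HA1, the histone demethylase KDM3A, the repressor BHLHE40 and INSIG2, which restrains sterol synthesis. BNIP3 was at 8.13, 7.93 and 8.28 with FABP4 shRNA, against 8.74, 9.25 and 9.52 with non-targeting shRNA. A second, dimmer BNIP3L probe was not called (-0.48, adjusted p = 0.0984). EGLN3 (-0.55, adjusted p = 0.0764), P4HA2 (-0.23, adjusted p = 0.099) and the carbonic anhydrase CA12 (0.04, adjusted p = 0.886) did not pass. All 3 FABP4 shRNA arrays were below all 3 non-targeting arrays for 15 of the 16 HIF targets and for 9 of the 17 glycolytic enzymes, where 16.4% of all genes showed this.

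Of the glycolytic enzymes, ENO2, the neuronal-type enolase, had the largest fall. It was at 7.14, 7.21 and 7.34 with FABP4 shRNA, against 8.50, 9.25 and 9.83 with non-targeting shRNA. The groups did not overlap, but the non-targeting arrays spanned over 1 log2 unit. The change was -1.96 (SE 0.26, adjusted p = 0.000244), to 0.257 times the non-targeting level. ENO1, the ubiquitous enolase, changed by -0.16 (adjusted p = 0.249).

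HK2, the hexokinase isoform that is inducible in many tumours and starts glycolysis, was at 10.13, 10.01 and 10.09 with FABP4 shRNA, against 10.63, 10.87 and 11.18 with non-targeting shRNA. The groups were separate, with a change of -0.82 (SE 0.14, adjusted p = 0.00115), while HK1 changed by -0.12 (adjusted p = 0.455). PGK1, the first ATP-forming enzyme of the pathway, was at 13.03, 13.12 and 12.69, against 13.29, 13.70 and 13.93, a change of -0.69 (SE 0.16, adjusted p = 0.00756). Its second probe gave -0.45 and was not called (adjusted p = 0.0573).

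The other called enzymes fell little. GPI, which makes fructose phosphate, changed by -0.53, TPI1, which interconverts the triose phosphates, by -0.45 (-0.71 by its dimmer probe) and PFKL, the liver-type phosphofructokinase, by -0.44. When each array was scaled to a common median in place of quantile normalization, these 3 and SLC2A1 were no longer called, with adjusted p of 0.0694 to 0.118, and the median over the 17 enzymes was -0.01, while all genes had a median of 0.10. TPI1 and PFKL also lost their calls in 5 and 4 of the 6 fits that left out 1 array, with adjusted p of up to 0.0874 and 0.0593. In a fit of the UM-UC14 arrays alone PGK1, TPI1 and EGLN1 were not called, with adjusted p of 0.0511 to 0.075. Over all genes that fit called 772 lower and 736 higher, where the main fit over 4 groups called 1483 and 1715.

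LDHA, LDHB, PKM, PGAM1 and GAPDH were not called by their brightest probes. LDHA, which makes lactate from pyruvate, was at 14.96 ± 0.05 with FABP4 shRNA, against 14.86 ± 0.15 with non-targeting shRNA (mean and SD, n = 3 each). These groups overlapped (0.09, SE 0.10, adjusted p = 0.579). PKM, the pyruvate kinase, LDHB and PGAM1 changed by 0.10, 0.05 and 0.13, none called. The brightest GAPDH probe was at 14.75, 14.70 and 14.62, against 14.95, 14.74 and 14.75 (-0.12, adjusted p = 0.388), whereas its dimmer probes, ILMN_1343295 and ILMN_1802252, fell by 0.33 (adjusted p = 0.0206) and 0.46 (adjusted p = 0.00771). The LDHA and GAPDH probes reached 90.6% and 86.7% of the brightest probe on an array, and without probes above 50% of the brightest the median over 16 enzymes was -0.29. Whether brightness limited the measured change was not tested. Dimmer probes of the opposite sign, none of them called, were at -0.06 for LDHA, 0.16 for HK1, 0.07 for ALDOA and -0.01 for CA12.

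Both glucose transporters fell. SLC2A3 (GLUT3) was at 6.73, 6.91 and 6.79 with FABP4 shRNA, against 7.61, 8.73 and 9.45 with non-targeting shRNA. The 3 shRNA arrays were tight and the non-targeting arrays spanned over 1 log2 unit. The change was -1.79 (SE 0.35, adjusted p = 0.00299). SLC2A3 has a near-identical copy, SLC2A14, that its probe may also bind. SLC2A1 (GLUT1) was at 12.33, 12.32 and 12.25, against 12.60, 12.93 and 12.96, a change of -0.53 (SE 0.13, adjusted p = 0.0111).

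Of the flux regulators, PFKFB3, the kinase that makes the strongest activator of phosphofructokinase, was at 10.74, 10.82 and 10.87 with FABP4 shRNA, against 11.21, 12.08 and 12.51 with non-targeting shRNA. Its change was -1.12 (SE 0.24, adjusted p = 0.00497), with non-targeting replicate 1 nearest the shRNA arrays. PFKFB4 (-0.17) and PDK1 (-0.07) were not called.

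The transcripts of the HIF alpha subunits were not called. HIF1A was at 10.07, 10.34 and 9.99 with FABP4 shRNA, against 10.09, 10.45 and 9.93 with non-targeting shRNA, and the groups overlapped (-0.03, SE 0.15, adjusted p = 0.93), and its 2 dimmer probes were not called either (-0.14 and -0.35). EPAS1, which encodes HIF2A, was at 12.17, 12.08 and 11.96, against 12.43, 12.11 and 11.49 (0.06, SE 0.17, adjusted p = 0.863). ARNT, a dim probe detected on 2 of the 3 FABP4 shRNA arrays, was at 4.81, 5.06 and 4.82, against 5.42, 5.66 and 5.59, a fall of 0.66 on the log2 scale (adjusted p = 0.00221).

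**Figure D2:**
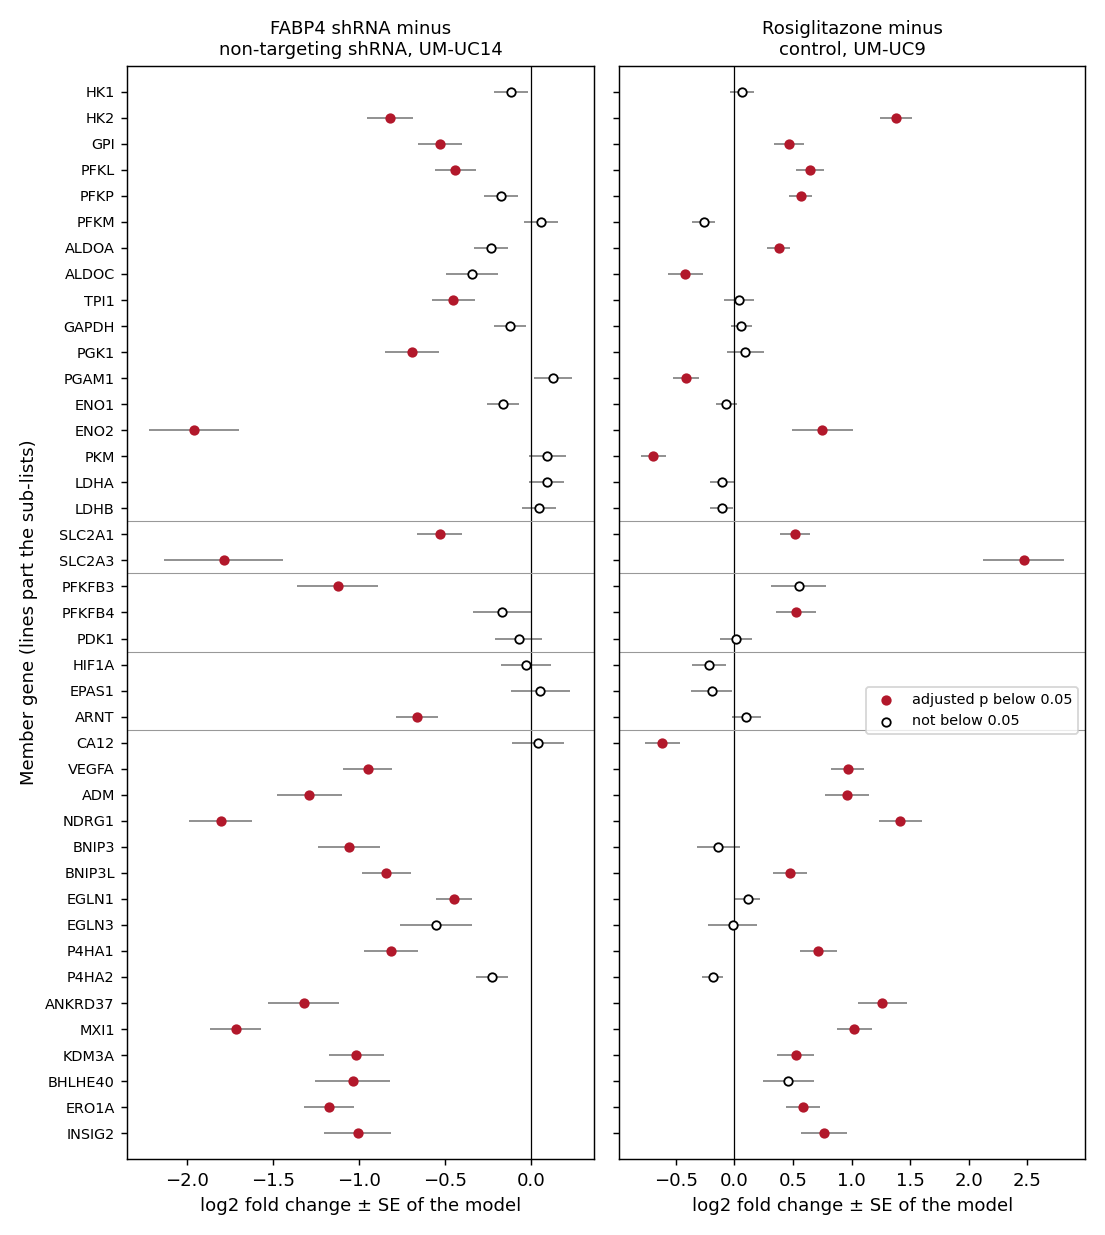
Log2 fold change (horizontal) of each of the 41 genes (vertical, by role) with FABP4 shRNA in UM-UC14 (left) and with rosiglitazone in UM-UC9 (right); bars are the model's SE and filled points passed an adjusted p of 0.05. All filled points on the left lie below 0 (23 genes), and on the right 19 lie above 0 and 4 below.

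The 3 non-targeting arrays were not alike for these genes. Relative to the mean of the FABP4 shRNA arrays, the median over the 16 HIF targets was 0.68 in non-targeting replicate 1, 1.03 in replicate 2 and 1.35 in replicate 3. Over the 17 glycolytic enzymes it was 0.18, 0.22 and 0.21, and over all genes -0.01, -0.02 and -0.03. The non-targeting replicates thus differed more in the median of the HIF targets than in that of the enzymes.

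Within the non-targeting group, replicate 1 was the lowest array for 30 of the 41 genes, where 36.9% of all genes were lowest there. Replicate 3 was the highest for 31, where 31.8% of all genes were highest there. By list, replicate 1 was the lowest for 12 of the 16 HIF targets and 12 of the 17 glycolytic enzymes. Replicate 3 was the highest for 14 of those HIF targets and 12 of those enzymes. Across all genes replicate 1 correlated about equally with the mean FABP4 shRNA array (r = 0.989) and with the mean of the other non-targeting arrays (r = 0.988). With replicate 1 as the only UM-UC14 control, which assumes that this lone array varies like the other groups, 10 of the 41 genes fell, where 6.1% of all genes fell. They were 8 of the 16 HIF targets (ADM, ANKRD37, BNIP3L, ERO1A, KDM3A, MXI1, NDRG1 and VEGFA) and 2 enzymes, ENO2 and HK2, all 10 also called with 3 controls. MXI1 (-1.66), VEGFA (-0.97) and BNIP3L (-0.78) kept most of their change, while SLC2A3 was at -0.80 (adjusted p = 0.112) and PFKFB3 at -0.40 (adjusted p = 0.155).

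In UM-UC14 the stress genes driven by the transcription factor ATF4 did not follow this order. Over 10 of them the median relative to the FABP4 shRNA mean was 1.04, 1.08 and 0.19 in non-targeting replicates 1 to 3, lowest in the array where the HIF targets were highest. Of these 10 genes 4 fell with FABP4 shRNA, where 11.2% of all genes fell. The largest falls were those of DDIT3 (-3.28), PPP1R15A (-2.54) and ATF3 (-2.42). All 10 rose with rosiglitazone, where 15.8% of all genes rose. The largest rises were those of DDIT3 (4.15), PPP1R15A (2.16) and CHAC1 (2.04, detected on no control array). On rosiglitazone replicates 1 to 3 the median of the 10 genes relative to the control mean was 1.42, 1.27 and 1.49. There the replicate order was that of the HIF targets, at 0.54, 0.28 and 0.88. The part of this stress response in the member changes was not tested. The summed log2 level of the 4 measured of 7 fibroblast markers was 25.1 to 25.5 with FABP4 shRNA, against 23.7 to 24.4 with non-targeting shRNA, with COL1A1 and LUM called higher. That of 3 of 5 endothelial markers was 16.7 to 17.2, against 17.7 to 19.4, with CDH5 at -1.70 called lower. That of 12 of 13 epithelial markers was 135.8 to 136.0, against 137.2 to 140.3, with CDH1, GATA3, ELF3 and UPK1B called lower. Over all genes 11.2% fell and 12.9% rose with FABP4 shRNA. With rosiglitazone the endothelial sum was 17.9 to 18.5, against 17.3 to 17.4 in controls, and the epithelial sum 135.8, against 133.0 to 133.4. The fibroblast sum was 23.04 to 23.41, against 22.41 to 23.01. Of the 12 epithelial markers 5 were called higher and 2 lower, where 15.8% of all genes rose and 17.6% fell. The sum of 2 of 5 blood markers was lower, at 9.60 to 9.96, against 10.19 to 10.69. That of 3 of 5 adipocyte markers was 16.91 to 18.42, against 18.01 to 18.95. The part of these markers in the member changes was not tested.

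**Figure D3:**
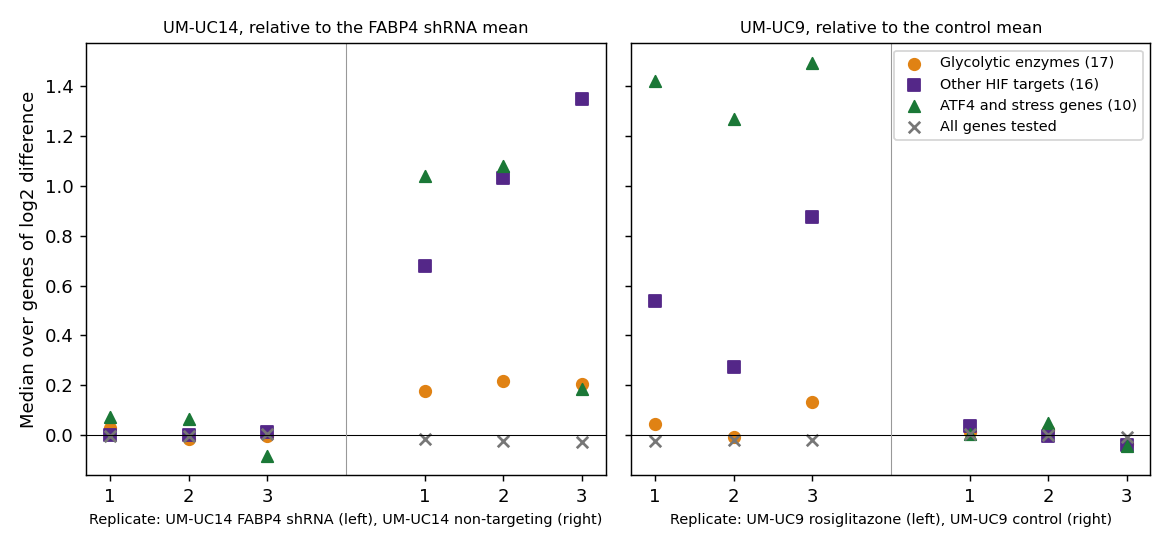
Median over genes of the log2 difference (vertical) on each array (horizontal, by replicate number), relative to the mean FABP4 shRNA array in UM-UC14 (left) or the mean control array in UM-UC9 (right), for 17 glycolytic enzymes, 16 other HIF targets, 10 ATF4 stress genes and all genes. The HIF targets sit at 0.68, 1.03 and 1.35 on the non-targeting arrays and at 0.54, 0.28 and 0.88 on the rosiglitazone arrays, while the glycolytic enzymes stay within 0.22 of 0.

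With rosiglitazone in UM-UC9, 19 of the 41 genes rose and 4 fell, where 15.8% of all genes rose and 17.6% fell. Of the 16 HIF targets 10 rose and 1 fell, with a median of 0.55, and of the 17 glycolytic enzymes 6 rose and 3 fell, with a median of 0.06, beside -0.02 over all genes. The 4 genes that fell, ALDOC, PGAM1, PKM and CA12, are a smaller share than among all genes, whereas the genes that rose are a larger one.

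Among the HIF targets, NDRG1 was at 13.03, 12.45 and 13.22 with rosiglitazone, against 11.55, 11.55 and 11.34 in controls. Rosiglitazone replicate 2 was the lowest of its group and still above every control. The change was 1.42 (SE 0.18, adjusted p = 6.77e-05), to 2.67 times the control level. ANKRD37 was at 10.28, 9.82 and 10.58, against 9.14, 8.83 and 8.92, a change of 1.26 (SE 0.21, adjusted p = 0.000502). MXI1 was at 7.68, 7.30 and 7.97, against 6.78, 6.61 and 6.50, a change of 1.02 (SE 0.15, adjusted p = 0.000197), with its dimmest probe not called (0.16, adjusted p = 0.327).

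VEGFA was at 10.02, 9.77 and 10.15 with rosiglitazone, against 8.86, 9.12 and 9.06 in controls, a change of 0.97 (SE 0.14, adjusted p = 0.00018). ADM was at 13.84, 13.67 and 14.08, against 12.85, 12.82 and 13.03, a change of 0.96 (SE 0.19, adjusted p = 0.00172). In both genes the groups were well separated. INSIG2, P4HA1, ERO1A, KDM3A and BNIP3L rose by 0.76, 0.72, 0.59, 0.52 and 0.47 on the log2 scale. The second P4HA1 probe and the second BNIP3L probe were not called (0.30, adjusted p = 0.484, and 0.41, adjusted p = 0.136).

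BNIP3 stood apart from its relative BNIP3L: it was at 4.75, 5.20 and 4.90 with rosiglitazone, against 5.26, 4.89 and 5.12 in controls, detected on 2 of the 3 rosiglitazone arrays, and not called (adjusted p = 0.637). BHLHE40 (0.46, adjusted p = 0.138), EGLN1 (0.11), EGLN3 (-0.01) and P4HA2 (-0.19) were not called. CA12, a membrane enzyme that hydrates carbon dioxide, fell: it was at 8.46, 8.06 and 8.53, against 8.92, 8.96 and 9.01 (-0.61, SE 0.15, adjusted p = 0.00766).

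At the entry to glycolysis, HK2 was at 11.76, 11.63 and 11.98 with rosiglitazone, against 10.53, 10.33 and 10.38 in controls. All 3 treated arrays were over 1 log2 unit above all 3 controls. The change was 1.38 (SE 0.14, adjusted p = 6.1e-06), to 2.60 times the control level. SLC2A3 was at 7.27, 6.55 and 7.63 with rosiglitazone and was detected on no control array, where the probe read 4.73, 4.75 and 4.55. The fitted change of SLC2A3 was 2.47 (limma, adjusted p = 0.000139). Against the detection limit of those control arrays SLC2A3 was at least 5.03-fold higher, a bound without a test of its own. SLC2A1 was at 12.95, 12.56 and 13.01, against 12.36, 12.32 and 12.29, a change of 0.52 (SE 0.13, adjusted p = 0.00825).

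Further down the pathway the enzymes moved both ways. PFKL rose by 0.65, PFKP by 0.56, GPI by 0.46 and ALDOA by 0.38 on the log2 scale, with a second ALDOA probe at 0.74 and the dimmest ALDOA and PFKP probes not called. ENO2 was at 8.11, 7.62 and 8.42, against 7.45, 7.32 and 7.12, a change of 0.75 (SE 0.26, adjusted p = 0.0455). That call was lost in 5 of the 6 fits that left out 1 array, where the highest adjusted p was 0.189. BNIP3L, KDM3A and PFKFB4 lost their calls in 4, 5 and 5 of those fits. Dimmer probes of the opposite sign, none of them called, were at -0.09 for TPI1, -0.04 for PGK1, 0.01 for LDHA and 0.34 and 0.01 for P4HA2.

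PKM was at 11.50, 11.37 and 11.68 with rosiglitazone, against 12.16, 12.28 and 12.19 in controls. The groups were separate and the change was -0.69 (SE 0.11, adjusted p = 0.000316). A second PKM probe also fell, by 0.48, and the third did not (-0.06, adjusted p = 0.85), so the probes of this gene disagreed. PGAM1 changed by -0.41 (adjusted p = 0.0139), with its other probe at -0.03, and these probes may also bind its retrotransposed copies, such as PGAM4. ALDOC changed by -0.42 (adjusted p = 0.0481) and was called in 1 of the 6 fits that left out an array.

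Of the regulators, PFKFB4 rose by 0.53 (adjusted p = 0.0317), and PFKFB3 was at 11.36, 11.08 and 11.55, against 10.88, 10.75 and 10.71, which did not pass (0.55, adjusted p = 0.102). PDK1 changed by 0.02. The HIF subunits were not called: HIF1A was at 9.47, 9.89 and 9.60 with rosiglitazone, against 9.85, 9.86 and 9.89 in controls (-0.21, adjusted p = 0.312). EPAS1 changed by -0.19 (adjusted p = 0.457) and ARNT by 0.10 (adjusted p = 0.601).

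The treated UM-UC9 arrays also differed among themselves. Relative to the control mean, the median over the HIF targets was 0.54, 0.28 and 0.88 in rosiglitazone replicates 1 to 3. Replicate 2 was the lowest of its group for 28 of the 41 genes, where 33.4% of all genes were lowest there, and replicate 3 the highest for 33, where 34.8% of all genes were highest there. All 3 rosiglitazone arrays were above all 3 controls for 22 of the 41 genes, 11 of them HIF targets, where 25.2% of all genes showed this.

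**Figure D4:**
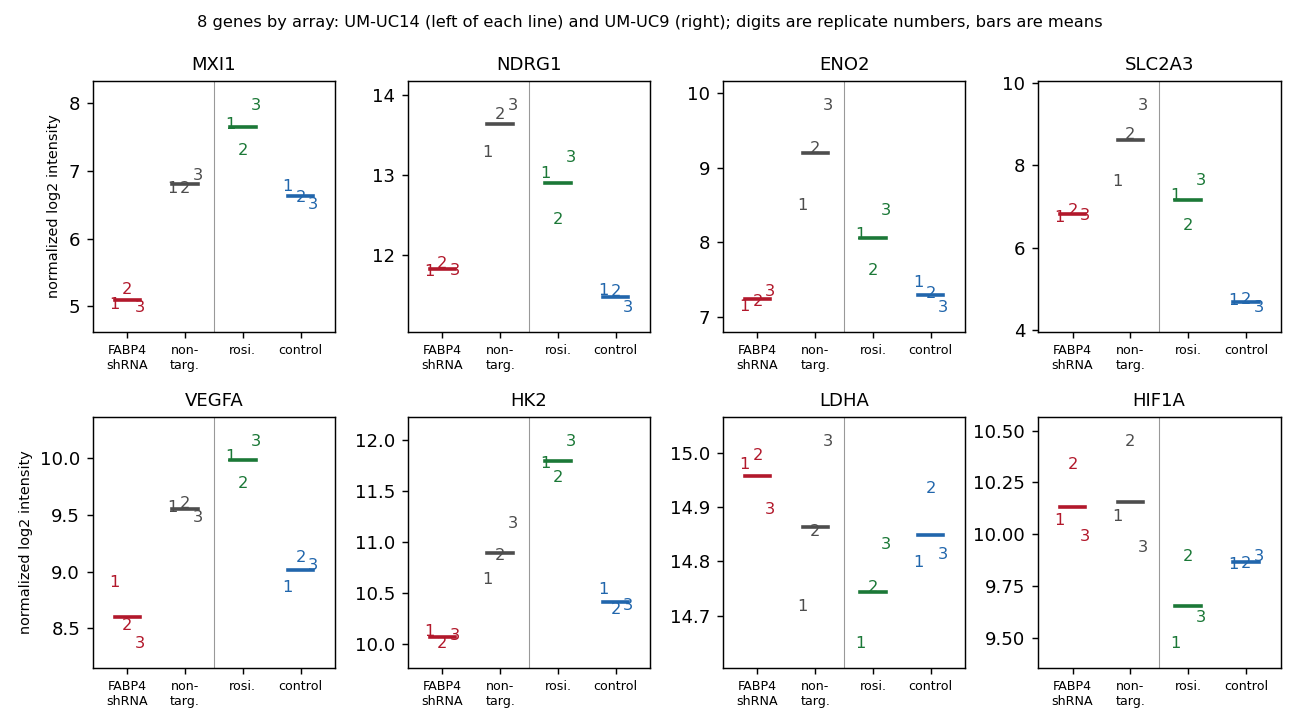
Normalized log2 intensity (vertical, own scale in each panel) of 8 genes on each array; digits are replicate numbers, bars are group means, UM-UC14 is left of each line and UM-UC9 right. MXI1, NDRG1, ENO2, SLC2A3, VEGFA and HK2 are lower with FABP4 shRNA and higher with rosiglitazone, while for LDHA and HIF1A the groups overlap within each line.

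The changes in the 2 lines were compared directly by a contrast, the rosiglitazone change minus the FABP4 shRNA change, which share no arrays. It was above 0 for 26 of the 41 genes and below 0 for 3, where 18.1% of all genes passed upward and 21.2% downward. The groups of genes called by each treatment divided as follows. The share of all genes in each of these joint classes was not counted, so how common opposite calls were in the series is not shown. There were 16 genes that fell with FABP4 shRNA and rose with rosiglitazone: 10 HIF targets, both transporters, and HK2, GPI, PFKL and ENO2. No gene fell with both. Another 7 genes fell with FABP4 shRNA and were not called with rosiglitazone (TPI1, PGK1, PFKFB3, ARNT, BNIP3, EGLN1 and BHLHE40). With rosiglitazone 3 rose (PFKP, ALDOA and PFKFB4) and 4 fell that were not called with FABP4 shRNA, and 11 were called in neither. For the first 7 the difference between the changes also passed, with values from 0.49 for TPI1 to 1.67 for PFKFB3, and it passed for 6 of the genes called with rosiglitazone only. It did not pass for ALDOC (-0.08, adjusted p = 0.81). In 12 fits that each left out 1 array, the difference lost its call in 10 for TPI1 (highest adjusted p = 0.122), 8 for PFKFB4 (0.0993) and 7 for CA12 (0.0732).

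In their control states the lines differed in the level of many of these genes, a comparison in which line and shRNA vector cannot be told apart. At an adjusted p below 0.05 and a fold of at least 2, 19 of the 41 genes were higher in the non-targeting UM-UC14 arrays than in the UM-UC9 controls and none was lower, where 13% of all genes passed in each direction. Without the fold limit 1 gene was lower by limma, PGK1, at 13.29, 13.70 and 13.93 in UM-UC14 against 14.13, 14.08 and 14.13 in UM-UC9, and no further gene was lower at an unadjusted p of 0.05.

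ALDOC, the brain-type aldolase, was at 11.98, 12.51 and 12.63 in UM-UC14 with non-targeting shRNA, against 6.63, 6.79 and 6.59 in untreated UM-UC9, a difference of 5.70 (SE 0.15, adjusted p = 2.14e-13). BNIP3 was at 8.74, 9.25 and 9.52, against 5.26, 4.89 and 5.12, a difference of 4.08 (SE 0.18, adjusted p = 8.33e-11). Against the detection limit of the UM-UC9 control arrays, the mean of SLC2A3 in UM-UC14 was at least 13.7-fold higher. This bound has no test of its own and leaves out the spread between arrays. In fits that left out 1 array, the fitted log2 difference of SLC2A3 was 3.49 to 4.41. HK1 (2.73), NDRG1 (2.16), ENO2 (1.90) and EGLN3 (1.79) followed, while LDHA (0.02), P4HA2 (0.02), EPAS1 (-0.07) and MXI1 (0.18) lay within the spread of the arrays. The median difference was 1.26 over the HIF targets and 0.69 over the enzymes, beside -0.02 over all genes, and with non-targeting replicate 1 alone as the UM-UC14 control it was 0.85 and 0.56.

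Further genes of the pathway were taken from a list of 41 HIF and glucose genes, of which 31 were measured, and 15 regulators of HIF. With FABP4 shRNA 7 of the 31 fell, with a median of -0.15, and 6 of the 15 regulators fell, with a median of 0.09, where 11.2% of all genes fell. HILPDA, a lipid droplet protein that blocks fat breakdown, was at 9.69, 9.60 and 9.77 with FABP4 shRNA, against 11.15, 12.48 and 12.82 with non-targeting shRNA (-2.46, adjusted p = 0.000132). LDHD, the mitochondrial dehydrogenase of D-lactate, was at 5.34, 5.00 and 5.11, against 7.39, 7.88 and 8.05 (-2.63, adjusted p = 5.49e-07), and the secreted glycoprotein STC2 changed by -1.08. CITED2, which competes with HIF for its coactivators, was at 8.68, 8.86 and 8.55, against 9.47, 10.59 and 10.95 (-1.64, adjusted p = 0.00184). The ubiquitin ligase SIAH1 changed by -0.87 and OS9, an endoplasmic reticulum lectin, by -0.73.

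With rosiglitazone 9 of the 31 genes rose and 4 fell, and 2 of the 15 regulators rose and 1 fell, where 15.8% of all genes rose and 17.6% fell. HILPDA was at 11.60, 11.24 and 11.77, against 10.49, 10.38 and 10.26 in controls (1.16, adjusted p = 0.0102). HMOX1, which degrades heme, rose by 1.11 and DDIT4, an inhibitor of mTOR signalling, by 0.88. CITED2 was at 10.37, 9.67 and 10.49, against 8.78, 8.67 and 8.62 (1.49, adjusted p = 0.00181), and SIAH1 rose by 0.65. The mitochondrial adenylate kinase AK4 changed by -1.05, TIGAR, a brake on glycolysis, by -0.84, PGAM4 by -0.52 and ARNT2 by -1.40. HILPDA, CITED2 and SIAH1 thus fell with FABP4 shRNA and rose with rosiglitazone.

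The promoter windows were also read by call, for ACGTG on either strand. Of the genes with a promoter, 14 of the 19 that fell with FABP4 shRNA held a match (73.7%). So did 7 of the 18 that were not called (38.9%), against 24.9% of all genes of the table. With GCGTG counted as well, the shares by promoter were 88.5% and 55.3%, against 48.4% of all promoters. Counted by gene the split between the lists was small, with a match for 9 of 14 other HIF targets and 11 of 17 glycolytic enzymes, LDHA among them. Counted by promoter it was larger, at 55.6% for the other HIF targets and 40.5% for the enzymes. These shares are descriptions without a test, genes have unequal numbers of starts, and the absence of a match says only that these letters are not in the window.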

How the data were processed

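RNA of 12 samples was read on Illumina bead arrays. Groups were taken from the labels. The deposited files hold a bead intensity and a detection p-value per probe, as the authors exported them; scanner software: not given in the sources used here. A deposited table of log2 values was used as an alternative. For the main values, intensities were corrected for background by means of the negative controls, offset by 16, quantile-normalized and log2-transformed (neqc, limma 3.58.1, R 4.3.3). Probes with detection p below 0.05 on at least 3 arrays were kept (25176 of 47323). Probes were named from the platform annotation: 30113 had 1 gene, 8 several and 17202 none, and probes with several named no gene. One linear model over 4 groups (8 residual degrees of freedom, eBayes) gave each contrast, with Benjamini-Hochberg adjustment over all kept probes. The brightest kept probe stands for a gene, and other probes are named where their sign or call differs in either treatment contrast. Of each further list, the 3 called genes with the largest rise and fall are named. The number of arrays limits precision.

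Same-numbered arrays deviated from their group means with correlations of -0.04 to 0.15, so the replicate numbers were not taken as pairs. Alternatives changed the background correction, offset, scaling, filter, probe choice, weights, samples and block. The fit was tested on simulated data. Members and lists were chosen with earlier results of these data known. Figures used Python 3.11.15 and matplotlib 3.10.9.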

Additional observations from a re-analysis of the deposited data

Results flagged for a closer look

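The log2 change with rosiglitazone in UM-UC9 minus that with FABP4 shRNA in UM-UC14 passed limma's test of the difference for 29 of the 41 genes, with adjusted p of 1.28e-06 to 0.0492. Among the HIF targets it was positive for NDRG1 (3.22), MXI1 (2.74), ANKRD37 (2.58), ADM (2.25), VEGFA (1.92), INSIG2 (1.77), ERO1A (1.76), KDM3A (1.54), P4HA1 (1.53), BHLHE40 (1.50), BNIP3L (1.32), BNIP3 (0.92) and EGLN1 (0.56). Among the transporters and flux regulators it was positive for SLC2A3 (fitted at 4.26), SLC2A1 (1.05), PFKFB3 (1.67) and PFKFB4 (0.70). Among the glycolytic enzymes it was positive for ENO2 (2.71), HK2 (2.20), PFKL (1.09), GPI (0.99), PGK1 (0.78), PFKP (0.74), ALDOA (0.61) and TPI1 (0.49). As SLC2A3 was detected on no UM-UC9 control array, its difference is only bounded, at 4.12 or more with the other group means taken as measured. That bound leaves out the spread between arrays. In the 12 fits that each left out 1 array, the fitted difference of SLC2A3 was 3.83 to 4.75. The HIF subunit ARNT had a difference of 0.76. It was negative for PGAM1 (-0.54), CA12 (-0.66) and PKM (-0.79). In 12 fits that each left out 1 array, TPI1 lost its call in 10, PFKFB4 in 8 and CA12 in 7. Line, perturbation and vector differ together in this contrast and cannot be told apart.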

How the results depend on the processing

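No called gene changed direction under any of the alternatives run. Of the 23 genes that fell with FABP4 shRNA, 17 kept their call under each of the 11 processing alternatives that tested them. In every fit without 1 array 21 kept it. The same counts were 18 and 15 of the 23 genes called with rosiglitazone. They were 23 (10 alternatives) and 26 of the 29 differences, and 16 and 17 of the 19 line differences. The alternative limited to probes detected on all 12 arrays tested 37 genes, without SLC2A3, PDK1, ARNT and BNIP3. Where called in a comparison, these genes are counted as kept under that alternative without a test. The 17 thus include SLC2A3, ARNT and BNIP3. Median scaling moved the enzyme median with FABP4 shRNA to -0.0050 and the line medians to 0.45 for enzymes and 1.03 for HIF targets. It put the share of higher calls among all called genes at 69.81% in place of 53.63% with FABP4 shRNA, 33.09% in place of 46.11% for the difference of changes and 39.67% in place of 49.99% between lines, with medians over all genes of 0.10, -0.15 and -0.15. Non-targeting replicate 1 as sole control gave 10 lower genes, an HIF target median of -0.68 and line medians of 0.56 and 0.85. Without the brightest probes the enzyme medians were -0.29 with FABP4 shRNA and 0.81 between lines. The cause of these shifts was not tested.

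Leaving out 1 array gave 21 to 25 lower genes with FABP4 shRNA, 13 to 19 higher and 2 to 4 lower with rosiglitazone, 24 to 27 positive and 2 to 3 negative differences, and 17 to 19 genes higher in UM-UC14. The 13 came without rosiglitazone replicate 3, and the 2 without rosiglitazone replicate 1 or UM-UC9 control replicate 2. Over all 13293 genes these fits gave 1007 to 2220 lower with FABP4 shRNA, where the main fit gave 1483. The 2220 came without non-targeting replicate 1 and the 1007 without replicate 2. With rosiglitazone they gave 1556 to 1854 higher and 1657 to 2026 lower, where the main fit gave 2106 and 2342. For the difference they gave 2028 to 2937 positive and 2358 to 3452 negative, and 1672 to 1834 genes were higher in UM-UC14. The enzyme and HIF target medians ranged from -0.23 to -0.15 and from -1.22 (without non-targeting replicate 1) to -0.87 with FABP4 shRNA, from -0.01 to 0.11 and from 0.41 to 0.69 with rosiglitazone, and from 0.65 to 0.76 and from 1.10 to 1.45 between lines. With the replicate number as a block the counts were unchanged, at 23 lower with FABP4 shRNA and 19 higher and 4 lower with rosiglitazone. Signals near the detection limit (SLC2A3, PDK1, ARNT and BNIP3 on some arrays) limit what small changes can be seen.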
